A study of Mus musculus with 6 samples.

Results

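The sarcomeric myosin heavy chain genes were examined in muscle of WT and Gpr174-/Y mice after ischemia. The 8 genes were chosen by name as the known adult fast (Myh1, Myh2, Myh4), adult slow and cardiac (Myh7, Myh7b, Myh6) and developmental (Myh3, Myh8) chains, and all 8 were found among the 18089 genes of the table. RNA was sequenced from the ischemic gastrocnemius of 3 WT and 3 Gpr174-/Y mice, the latter labelled GPR174-KO. All mice were male, on a C57BL/6 background, 8 to 10 weeks old, and all had undergone hindlimb ischemia (HLI), the surgical closure of a femoral artery, 7 days earlier. Gpr174 encodes a G protein-coupled receptor for lysophosphatidylserine and lies on the X chromosome, so that males carry 1 copy. The knockout was not restricted to a cell type, and non-ischemic muscle was not analysed here.

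Myosin heavy chain is the motor of the thick filament. Each chain binds an essential and a regulatory light chain, and the chain that a fibre makes largely sets how fast it shortens. Adult mouse limb muscle uses 4 of these genes: Myh7 in slow type I fibres, Myh2 in type IIa, Myh1 in type IIx and Myh4 in the fastest, type IIb, fibres. Regenerating fibres first make the embryonic chain, Myh3, and the neonatal (perinatal) chain, Myh8, and later replace them with adult chains. The gastrocnemius of the mouse is a predominantly fast muscle.

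The fast and developmental genes stand in a row on chromosome 11, in the order Myh3, Myh2, Myh1, Myh4 and Myh8, while Myh6 and Myh7 are neighbours on chromosome 14 and Myh7b is on chromosome 2. The bases just upstream of the start sites of the 5 clustered genes are printed because these neighbours differed from one another in the comparison. They are the 120 bases before the first RefSeq start site on the plus strand of GRCm38.p6, at chr11:67078180-67078299 for Myh3, chr11:67170907-67171026 for Myh2, chr11:67199982-67200101 for Myh1, chr11:67237692-67237811 for Myh4 and chr11:67277004-67277123 for Myh8. Capitals mark the letters of 5 motifs found on either strand, namely TATAAA, the E-box CANNTG, the MCAT element CATTCC, the MEF2 motif and the CArG box.
Myh3: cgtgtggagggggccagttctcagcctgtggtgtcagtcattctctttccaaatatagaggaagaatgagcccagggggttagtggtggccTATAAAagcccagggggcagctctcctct
Myh2: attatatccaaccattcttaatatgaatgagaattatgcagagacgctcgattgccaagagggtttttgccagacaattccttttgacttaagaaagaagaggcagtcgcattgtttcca
Myh1: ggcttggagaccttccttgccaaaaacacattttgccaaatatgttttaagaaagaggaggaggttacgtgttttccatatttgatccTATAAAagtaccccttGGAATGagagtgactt
Myh4: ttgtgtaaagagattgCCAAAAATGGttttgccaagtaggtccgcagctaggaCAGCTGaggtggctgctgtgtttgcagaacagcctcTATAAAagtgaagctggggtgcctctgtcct
Myh8: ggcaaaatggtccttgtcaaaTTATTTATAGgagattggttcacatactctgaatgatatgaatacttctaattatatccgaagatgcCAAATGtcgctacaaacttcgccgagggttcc

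TATAAA began 32 bases before the start in Myh1, 31 in Myh4 and 29 in Myh3. Over the 250 bases upstream, 12.4% of 32851 RefSeq promoters held TATAAA, 66.2% an E-box, 12.6% an MCAT element, 2.9% a MEF2 motif and 1.5% a CArG box. The MEF2 letters, which can overlap TATAAA, were found upstream of Myh1, Myh4 and Myh8, and a CArG box upstream of Myh4. None of the 5 motifs was found in the 250 bases upstream of Myh2. The search ended at the annotated start site, so a motif after that site would be missed. These matches are descriptions of the letters only, and factor binding was not measured.

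The libraries held between 18417077 and 19394469 estimated counts. Gpr174 itself had 8, 2 and 5 counts in WT replicates 1 to 3 and 1, 0 and 0 in the Gpr174-/Y replicates. In both groups replicate 2 resembled a fixed blend of the other two. Of 1149 genes with at least 10 CPM, that is counts scaled to a common library size, whose WT replicates 1 and 3 differed at least 1.5-fold, WT replicate 2 lay between them for 1147, at a median of 39.5% of the way from replicate 1 to replicate 3 (quartiles 35.7% and 43.2%). The same held for 114 of 115 such genes in the Gpr174-/Y group (median 39.9%, quartiles 35.5% and 43.3%). For the 6 abundant myosin heavy chains WT replicate 2 stood 37.7% of the way for Myh2, 38.2% for Myh3, 39.1% for Myh4, 39.4% for Myh8, 39.8% for Myh1 and 41.9% for Myh7. Gpr174-/Y replicate 2 stood between 35.4% and 39.7% of the way for these genes other than Myh3, whose replicates 1 and 3 were nearly equal there. Myh7b and Myh6, with few counts, lay elsewhere, Myh7b at 18.2% and Myh6 level with WT replicate 3. The reason was not tested. The tests take 3 libraries a group as independent, so the calls of the single chains and of the gene lists are also given from replicates 1 and 3 alone, a fit in which edgeR's quasi-likelihood test left 0 of 14447 genes with an adjusted p under 0.05 and 5026 with an unadjusted p under 0.05.

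The 3 adult fast chains and Myh7 were lower in Gpr174-/Y muscle, and no rise of a chain passed the test. Of the 8 genes, 4 were lower with an adjusted p under 0.05 and a log2 fold change below -1, where 4.84% of the 14395 tested genes were, and 0 were higher past both thresholds, where 3.45% of genes were. At any fold change the same 4 were lower, beside 27.6% of all genes, and 0 higher, beside 27% of all genes. Myh6 was removed by the filter on low counts, and Myh7b passed it only through the Gpr174-/Y libraries. These values come from edgeR's quasi-likelihood test on TMM-scaled counts with Benjamini-Hochberg adjustment over all tested genes (TMM is edgeR's scaling, which assumes that most genes do not differ). Values in CPM below are on that scale. In bulk muscle, fewer fibres of a type and less RNA per fibre cannot be told apart.

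**Figure D1:**
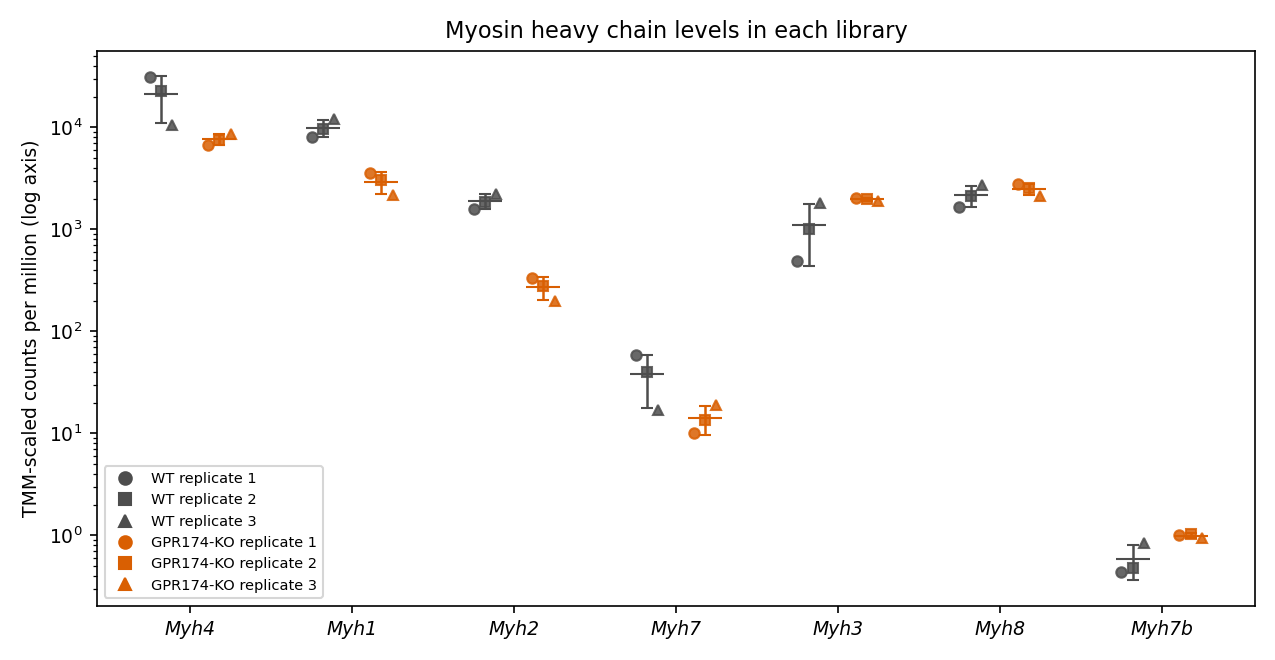
TMM-scaled CPM of 7 myosin heavy chain genes (log axis), with each library as a point, and the group mean and SD (n = 3) as a horizontal bar with whiskers; Myh6, near the limit of detection, is left out. The grey WT and orange GPR174-KO points do not overlap for Myh4, Myh1, Myh2, Myh3 and Myh7b, and overlap for Myh7 and Myh8; 65.6% of all tested genes do not overlap.

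Myh2, the chain of type IIa fibres, fell the most. It stood at 1593, 1844 and 2230 CPM in WT replicates 1 to 3 and at 336, 280 and 200.01 CPM in the Gpr174-/Y replicates. The groups were far apart, each spanning a narrow range. Its level was 6.94-fold lower (log2 fold change -2.80, SE 0.22, adjusted p = 0.00062 in edgeR). With replicates 1 and 3 alone the log2 fold change was -2.83 and the adjusted p 0.0542.

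Myh1, the chain of type IIx fibres, stood at 8144, 9763 and 11973 CPM in the WT replicates and at 3580, 3035 and 2196 CPM in the Gpr174-/Y replicates. No Gpr174-/Y library reached the lowest WT library. The log2 fold change was -1.76 (SE 0.23, adjusted p = 0.0015 in edgeR), and -1.80 with an adjusted p of 0.0561 from replicates 1 and 3 alone.

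Myh4, the chain of type IIb fibres, was the most abundant of the 8 in 5 libraries. Its WT values were 31348.5, 22677 and 10481 CPM and its Gpr174-/Y values 6770, 7537 and 8714 CPM. The groups did not overlap, but WT replicate 3 lay much nearer to the Gpr174-/Y libraries than WT replicate 1 did, and the WT libraries spanned 2.99-fold. The log2 fold change was -1.49 (SE 0.38, adjusted p = 0.0149 in edgeR). The call was lost from replicates 1 and 3 alone (log2 fold change -1.43, adjusted p = 0.142) and on leaving out WT replicate 2 (0.0501), Gpr174-/Y replicate 1 (0.0598) or Gpr174-/Y replicate 2 (0.0553).

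Myh7, the slow chain of type I fibres and of the adult heart ventricle in large mammals, was scarce. It stood at 58.2, 40.0 and 17.03 CPM in the WT replicates and at 10.1, 13.4 and 19.02 CPM in the Gpr174-/Y replicates. Gpr174-/Y replicate 3 exceeded WT replicate 3, so the groups overlapped. The log2 fold change was -1.43 (SE 0.44, adjusted p = 0.0305 in edgeR), and -1.36 with an adjusted p of 0.196 from replicates 1 and 3 alone. The call was also lost without WT replicate 1 (0.069), WT replicate 2 (0.0824), Gpr174-/Y replicate 1 (0.101) or Gpr174-/Y replicate 2 (0.0892). It was lost as well with total counts (0.0503), limma voom (0.057), log2(FPKM + 1) (0.0746) and log2(FPKM + 0.1) (0.076). Without WT replicate 3 it was stronger, at a log2 fold change of -1.78 (adjusted p = 0.00364).

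Myh7b, a slow-type chain, and Myh6, the fast chain of the adult mouse heart, were close to the limit of detection, taken as 3 counts a library. Myh7b had 7, 8 and 15 counts in the WT replicates and 21, 22 and 20 in the Gpr174-/Y replicates. The groups did not overlap, with a log2 fold change of 0.74 (SE 0.27, adjusted p = 0.0558 in edgeR). Since it entered the test only through the group in which it is higher, its fits under other settings are not used as evidence. Myh6 had 5, 3 and 3 counts in the WT replicates and 0, 3 and 3 in the Gpr174-/Y replicates, which gives no basis for a fold. The 4 heart markers listed had at most 30 counts in any library.

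Myh7, Myh7b and Myh6 each hold a miRNA gene within an intron. The mature miRNAs are printed to show that the 3 hosts carry closely related sequences, with the seed (bases 2 to 8) in capitals, from RefSeq.
mmu-miR-208b-3p (Myh7): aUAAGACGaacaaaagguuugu
mmu-miR-208a-3p (Myh6): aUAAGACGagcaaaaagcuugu
mmu-miR-499-5p (Myh7b): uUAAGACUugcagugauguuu

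The first pair shares a seed, and the seed of miR-499-5p differs from it in its last base. The miRNAs themselves were not analysed here, and the transcripts of Myh7, Myh7b and Myh6 were those near the bottom of the range. Myh3, an abundant chain, also holds a miRNA gene within its span, that of miR-6923-5p, whose sequence is not printed.

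Both developmental chains had higher mean levels in Gpr174-/Y muscle, but neither difference passed the test. Myh3, the embryonic chain, stood at 488, 1020.3 and 1803 CPM in the WT replicates and at 2048, 1994 and 1909 CPM in the Gpr174-/Y replicates. The WT libraries were spread 3.69-fold, the Gpr174-/Y libraries lay together, and the groups did not overlap, as was so for 65.6% of all tested genes. The difference did not pass the test (log2 fold change 0.85, SE 0.41, adjusted p = 0.124 in edgeR). It passed without WT replicate 3, the WT library nearest to the Gpr174-/Y group (log2 fold change 1.40, adjusted p = 0.0127), and the adjusted p was 0.404 from replicates 1 and 3 alone.

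Myh8, the neonatal chain, stood at 1677, 2104 and 2701 CPM in the WT replicates and at 2777, 2525 and 2131 CPM in the Gpr174-/Y replicates. WT replicates 2 and 3 lay among or near the Gpr174-/Y libraries. The log2 fold change was 0.20 (SE 0.19, adjusted p = 0.412 in edgeR), 0.16 (0.734) from replicates 1 and 3 alone, and 0.40 (0.0315) without WT replicate 3.

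WT replicate 3 decided several calls. Without it, Myh1, Myh2, Myh4 and Myh7 were lower and Myh3 and Myh8 higher at an adjusted p of 0.05, leaving Myh7b aside, but in that fit 31.1% of all tested genes were lower and 31.7% higher. Within the WT group the genes fell into opposite sets. WT replicate 3 had less Myh4 and Myh7 than WT replicate 1, and more Myh1, Myh2, Myh3 and Myh8. In the Gpr174-/Y group Myh4 and Myh7 likewise ran opposite to Myh1, Myh2 and Myh8, with replicate 1 now at the low end for Myh4 and Myh7.

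Levels of different genes are compared per length, as TPM, the deposited measure that divides by transcript length and by the library's total. The summed TPM of the 8 genes was 10386.7 ± 1520.3 (SD, n = 3) in WT and 5730.8 ± 128.0 in Gpr174-/Y muscle. The single WT libraries stood at 11784.9, 10607 and 8768 TPM and the Gpr174-/Y libraries at 5610.2, 5717 and 5865 TPM, so the pool was smaller in every Gpr174-/Y library. The summed TPM of Myh3 and Myh8 was 581, 875 and 1341 in the WT replicates and 1732, 1667 and 1551 in the Gpr174-/Y replicates. On this scale the adult chains Myh1, Myh2, Myh4 and Myh7 together stood at 11203, 9731 and 7427 TPM in WT and at 3878, 4049 and 4314 TPM in Gpr174-/Y muscle.

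The make-up of the pool differed with its size. Myh3 and Myh8 made up 4.93%, 8.25% and 15.3% of it in the WT replicates and 30.9%, 29.2% and 26.4% in the Gpr174-/Y replicates. The means were 9.49% ± 5.29 and 28.8% ± 2.23 (SD, n = 3), without overlap (2-sided exact permutation test, p = 0.1, the smallest that 3 libraries against 3 allow). The permutation tests here and below take all 3 libraries of a group as independent, and with fewer the smallest possible p is larger. This share is computed within a library and does not depend on how libraries are scaled against each other. From replicates 1 and 3 alone the difference was 18.55 percentage points, against 19.3 from all libraries.

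Both developmental chains had larger shares, but a share also rises when the rest of the pool shrinks. On TMM-scaled counts the log2 fold change of Myh8 itself was 0.20 (adjusted p = 0.412 in edgeR), and that of Myh3 0.85 (0.124). Myh3 was 3.35% ± 2.59 of the pool in WT and 13.0% ± 0.321 in Gpr174-/Y muscle, and Myh8 6.14% ± 2.70 and 15.9% ± 1.91, each without overlap (exact permutation p = 0.1, n = 3). Of the adult chains, Myh2 differed without overlap, at 5.38% ± 2.01 against 1.76% ± 0.425 (exact permutation p = 0.1). The share of Myh4 overlapped between the groups, at 72.4%, 60.6% and 35.9% in the WT and 43.7%, 49.1% and 57.6% in the Gpr174-/Y replicates (exact permutation p = 0.6). Its difference in mean, -6.18 percentage points, was 1.87 without WT replicate 1 and -16.4 without WT replicate 3. The share of Myh1 overlapped too, with means of 28.7% ± 11.4 and 19.2% ± 4.35 (exact permutation p = 0.3), and its difference ran from -14.5 percentage points without WT replicate 1 to -3.32 without WT replicate 3. Myh7 as a share of the 4 adult limb chains was 0.109% ± 0.0368 in WT and 0.129% ± 0.0382 in Gpr174-/Y muscle, a difference smaller than the spread within a group (exact permutation p = 0.5).

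**Figure D2:**
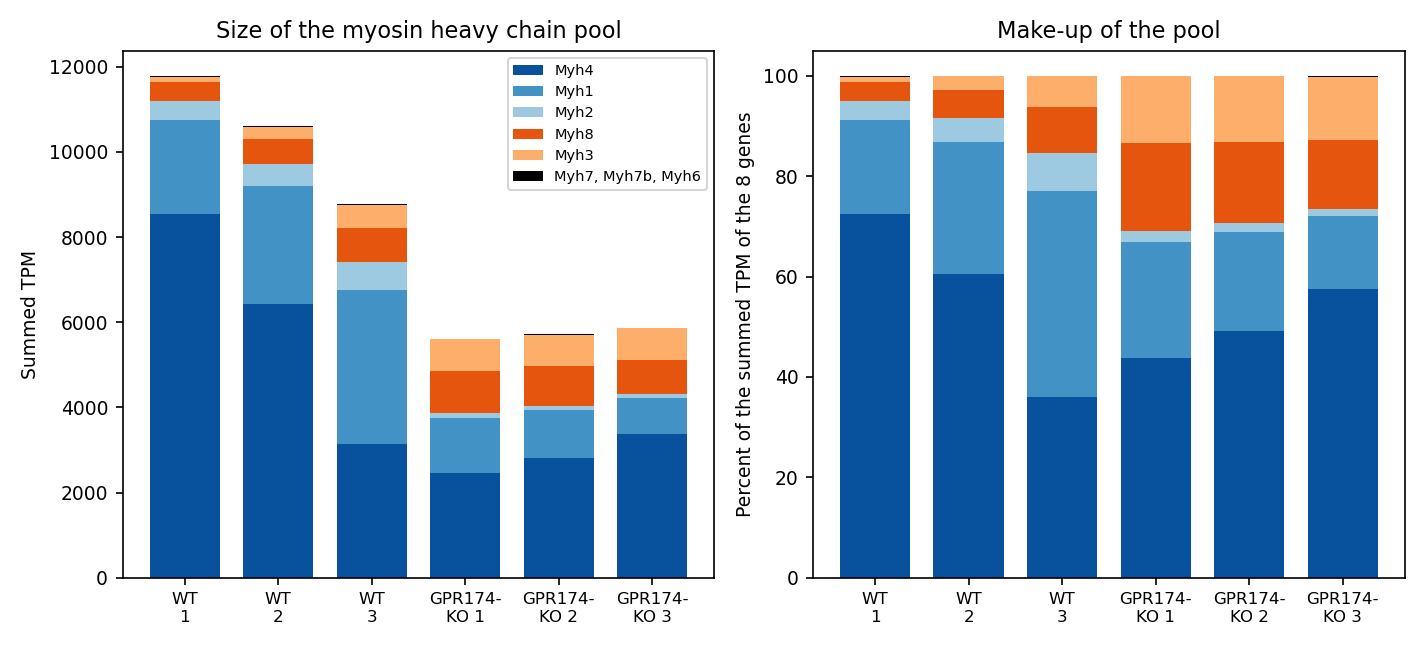
Left, summed TPM of the myosin heavy chain genes in each library, stacked by gene, and right, the percent of that sum due to each gene; blues are adult fast chains, oranges the developmental Myh8 and Myh3, and black the remaining 3 genes, too scarce to see. The GPR174-KO bars are shorter on the left, and the orange parts take up 26.4% to 30.9% of them on the right, against 4.93% to 15.3% in WT.

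The order of the levels changed at a single place between the groups. In WT replicates 1 and 2 it ran Myh4, Myh1, Myh8, Myh2, Myh3, Myh7, Myh7b and Myh6, and in WT replicate 3 Myh1 stood above Myh4. In all 3 Gpr174-/Y libraries Myh3 stood above Myh2, at 742.5 ± 2.06 against 100.5 ± 22.2 TPM (SD, n = 3), whereas in WT Myh2 stood above Myh3, at 538.3 ± 119 against 322.1 ± 207 TPM. Of the neighbours in this order, Myh2 and Myh8 were close in WT, at ratios of 0.960, 0.886 and 0.835.

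Ratios between genes within a library need no scaling between libraries. The 6 chains with at least 100 counts in every library form 15 pairs, of which 8 did not overlap between the groups and 7 did. The counts were the same from replicates 1 and 3 alone. Replicate 2 lies between the other two for most of these genes, so this is no separate support. For scale, 65.6% of all tested genes did not overlap in CPM, and the share among pairs of other genes was not computed. The pairs were singled out after their values were seen. The steadiest was Myh1 to Myh2, which stood at 5.16, 5.34 and 5.42 in the WT replicates and at 10.7, 10.9 and 11.1 in the Gpr174-/Y replicates. It varied 1.05-fold among the WT and 1.03-fold among the Gpr174-/Y libraries, while replicates 1 and 3 of a group differed between 1.52- and 1.62-fold for each gene, and it differed by 1.04 on the log2 scale between the groups (SE 0.0246, exact permutation p = 0.1). Myh2 was thus lower than Myh1 by a near-constant extra factor in these libraries, 2 of which lie between the others.

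Myh1 and Myh2 were also steady against Myh8. Myh1 to Myh8 was 4.95, 4.73 and 4.52 in the WT replicates and 1.32, 1.23 and 1.05 in the Gpr174-/Y replicates, 3.97-fold lower. Myh2 to Myh8 was 8.17-fold lower in Gpr174-/Y muscle, and Myh2 to Myh3 showed the widest separation of the 15, 14.5-fold lower. Myh3 to Myh8, the balance of embryonic to neonatal chain, was 0.297, 0.495 and 0.682 in the WT replicates and 0.753, 0.805 and 0.913 in the Gpr174-/Y replicates. The groups did not overlap for any of these (exact permutation p = 0.1 for each, n = 3).

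Myh4 and Myh7 kept a ratio to each other across the groups. Myh4 to Myh7 was 540, 567.5 and 617 in the WT replicates and 669, 565 and 460.1 in the Gpr174-/Y replicates, a log2 difference of -0.04 (SE 0.17, exact permutation p = 0.9). Against Myh1, in contrast, Myh4 ranged 4.397-fold within WT and 2.10-fold within Gpr174-/Y muscle, and the groups overlapped (exact permutation p = 0.6). These ratios rest on reads that near-identical copies can share. Of the 100-base windows of a transcript, 9.97% in Myh1, 9.17% in Myh2, 3.85% in Myh4, 6.61% in Myh8, 1.15% in Myh3, 11.4% in Myh7 and none in Myh7b also occur in another myosin heavy chain gene, and the estimated counts divide such reads between genes. Read length is not given in the sources used here, and with 50-base windows the shares were 27.4%, 26.9%, 18.9%, 21.4%, 4.81% and 22.6% in the same order of genes, and again none in Myh7b. Myh1 and Myh2, the steadiest pair, shared more windows with each other than with any other chain.

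**Figure D3:**
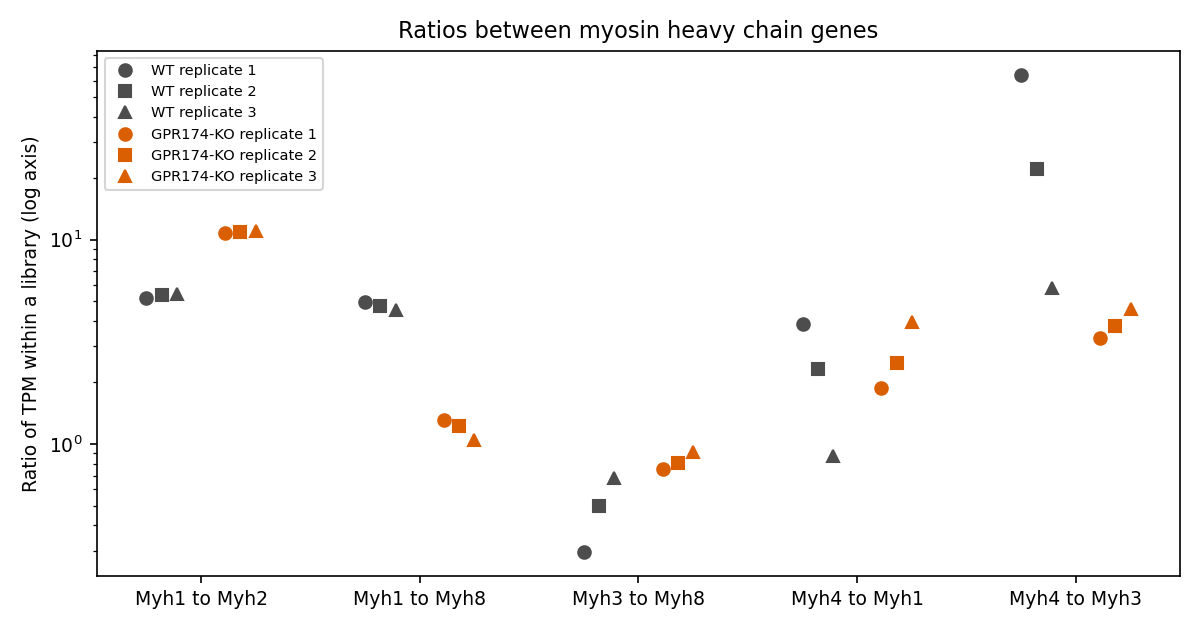
Ratios of TPM within each library for 5 pairs of myosin heavy chain genes (log axis), with each library as a point. Myh1 to Myh2 forms narrow groups near 5.34 in WT and 10.9 in GPR174-KO, while Myh4 to Myh1 overlaps between the groups.

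The deposited transcript models add a check on each gene. Myh2, Myh4, Myh6 and Myh8 have a single listed transcript. For Myh1 the curated model, NM_030679.2, held 77.3% to 86.9% of the reads. For Myh7 nearly every read fell on a predicted model in 5 libraries, but on the curated model (99.2%) in Gpr174-/Y replicate 3, and for Myh7b the reads changed among 5 models from library to library. Gene totals were therefore used throughout, and no isoform comparison was made.

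The choice of scaling sets how far the members lie from 0, but in the 4 scalings compared no tested member changed sign. With total counts in place of TMM, the median of all genes moved to 0.28 on the log2 scale. Scaled instead to the summed counts of 20 mature fibre genes, such as creatine kinase and skeletal actin, the median of all genes stood at 1.15. Under this fibre scaling Myh4 (log2 fold change -0.29, adjusted p = 0.397) and Myh7 (-0.23, 0.59) no longer differed past the threshold, Myh1 stood at -0.65 (0.0274) and Myh2 at -1.68 (0.000148) in edgeR. Myh2 was then the 1 chain lower past both thresholds, as 0.375% of all genes were. Myh3 (1.93, adjusted p = 0.00414) and Myh8 (1.31, 0.000752) were higher past both thresholds, but so were 62.9% of all genes, so these calls set the developmental chains apart little from the genes at large. Myh7b stood at 1.87 and is not counted, for the reason given above. These scalings were not run on replicates 1 and 3 alone.

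Scaled to the 8 chains themselves, Myh2 was again the 1 chain lower past both thresholds (log2 fold change -1.61, adjusted p = 0.000526 in edgeR), beside 0.306% of all genes, and Myh3 (1.95) and Myh8 (1.37) were higher, beside 68.8%. The pool and the mature fibre genes fell side by side. Counts of the 8 chains were 0.405, 0.378 and 0.333 of those of the fibre genes in the WT replicates and 0.333, 0.347 and 0.367 in the Gpr174-/Y replicates, which overlap.

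**Figure D4:**
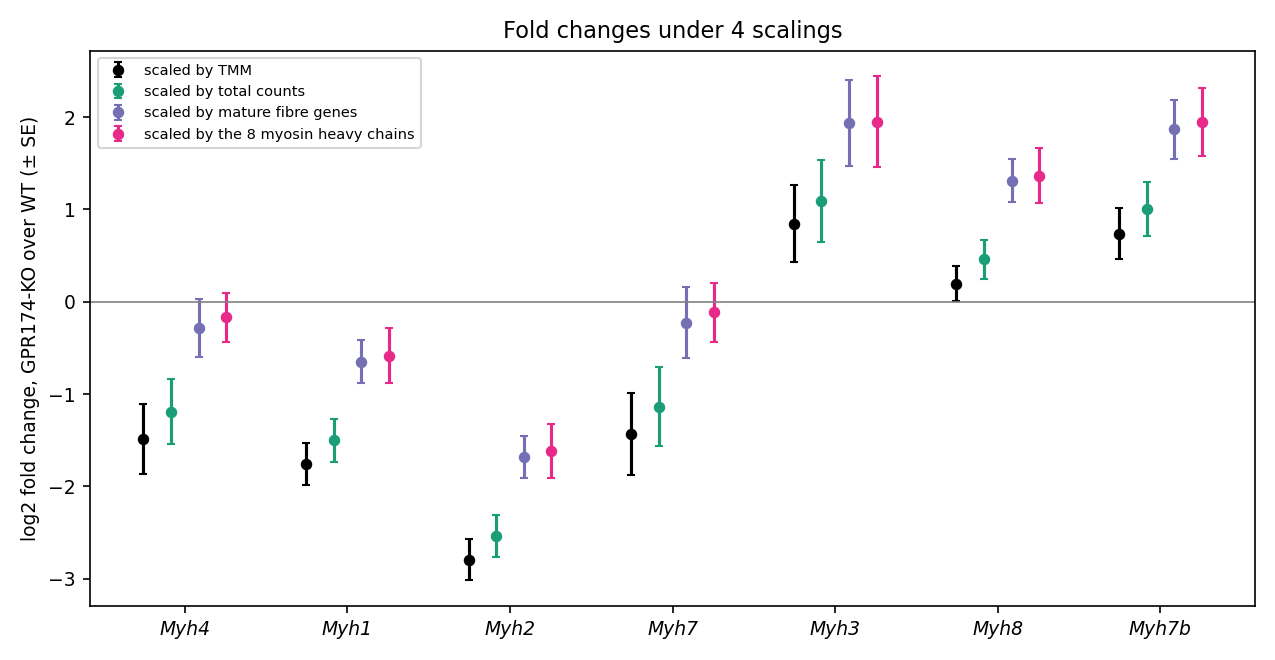
Log2 fold changes of 7 myosin heavy chain genes, GPR174-KO over WT, with standard errors, under 4 scalings of the libraries (colours). Every gene keeps its sign, Myh2 lies lowest in each scaling, and Myh4 moves from -1.49 with TMM to -0.17 scaled to the 8 chains.

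The partners of the fast chains moved with them. All 11 listed fast fibre genes were lower past both thresholds, beside 4.84% of all genes. Their median log2 fold change was -1.44, beside 0.00 over all genes. Pvalb, the calcium buffer parvalbumin, fell most (log2 fold change -2.34, SE 0.30, adjusted p = 0.00148), followed by Mybpc2, the fast myosin binding protein C (-2.07, SE 0.29, 0.00185). Mylpf, the fast regulatory light chain (-1.28, SE 0.16, 0.00147 in edgeR), and Myl1, the fast essential light chain (-1.28, SE 0.14, 0.00107), fell least. The 11 were also all lower past both thresholds with total counts, without WT replicate 1 and without WT replicate 3. Of all genes 354 of 14395, 535 of 14563 and 934 of 14587 were lower past both in these fits. From replicates 1 and 3 alone 0 passed an adjusted p of 0.05. There all 11 had an unadjusted p under 0.05, beside 5026 of 14447 genes.

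The slow fibre genes were divided. Of 9, 3 were lower and 1 higher past both thresholds, beside 4.84% and 3.45% of all genes, and the median was 0.06. Myl2 and Myl3, the regulatory and essential light chains that pair with Myh7, fell far more than Myh7 itself did. Myl2 stood at 63.1, 50.2 and 37.6 CPM in the WT replicates and at 2.05, 2.59 and 3.02 CPM in the Gpr174-/Y replicates, a log2 fold change of -4.29 (SE 0.24, adjusted p = 0.000312 in edgeR). Myl3 stood at 56.8, 47.0 and 33.6 CPM and at 2.05, 2.50 and 3.35 CPM, a log2 fold change of -4.11 (SE 0.26, 0.000391).

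These values leave a wide gap between the groups, unlike those of Myh7. Myoz2, a calcineurin-binding Z-disc protein, also fell (-1.10, adjusted p = 0.00721 in edgeR), and Tnnc1, the slow and cardiac troponin C, rose (1.09, 0.0079). Tpm3, slow tropomyosin, was higher at 0.37 (0.0145). Tnnt1, slow troponin T, at 0.03 (0.758), and Atp2a2, the slow calcium pump, at 0.06 (0.68), showed the smallest differences. From replicates 1 and 3 alone 0 of the 9 passed an adjusted p of 0.05. There 4 of the 9 had an unadjusted p under 0.05, beside 5026 of 14447 genes.

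Genes of developing and regenerating fibres, which accompany Myh3 and Myh8, were mostly higher. Of 13, 7 were higher past both thresholds and 0 lower, beside 3.45% and 4.84% of all genes. At any fold change 11 were higher and 1 lower, beside 27% and 27.6% of all genes, and the median was 1.01. Mymx, a micropeptide needed for myoblast fusion (log2 fold change 1.84, SE 0.23, adjusted p = 0.00147 in edgeR), and Chrng, the fetal acetylcholine receptor subunit (1.68, SE 0.17, 0.0009), rose most. Actc1, cardiac actin, which developing muscle also makes, stood at -0.28 (0.144), and Myod1, a myogenic transcription factor, rose by 0.54 (0.00139). Mybph, myosin binding protein H, was the 1 lower gene (-0.59, 0.00654). The count higher past both thresholds was 9 with total counts, beside 1144 of 14395 genes, and 6 without WT replicate 1, beside 389 of 14563. Without WT replicate 3 it was 8, beside 892 of 14587 genes, and from replicates 1 and 3 alone it was 0. In that last fit 12 had an unadjusted p under 0.05, beside 5026 of 14447 genes.

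Genes that fold myosin, hold the thick filament or turn it over were mostly lower. Of 18, 17 were tested, and 7 were lower past both thresholds and 0 higher, beside 4.84% and 3.45% of all genes. At any fold change 14 were lower and 1 higher (median -0.96), beside 27.6% and 27% of all genes. Mybpc2, which also stands among the fast genes, and Mylk2, the kinase of the regulatory light chain (-1.76, SE 0.23, adjusted p = 0.00163 in edgeR), fell most. Trim55, a ubiquitin ligase of the M-band, stood at -0.18 (0.203), and Unc45b, the myosin chaperone, at -0.29 (0.0406). Hsp90aa1, a general chaperone that works with Unc45b, was the 1 higher gene (0.85, 0.0009). With total counts, 3 were lower and 1 was higher past both thresholds, beside 354 and 1144 of 14395 genes. Without WT replicate 1, 5 were lower past both, beside 535 of 14563 genes. From replicates 1 and 3 alone 0 passed an adjusted p of 0.05. There 13 had an unadjusted p under 0.05, beside 5026 of 14447 genes.

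Transcription regulators of fibre type changed less. Of 21, 2 were lower past both thresholds, beside 4.84% of all genes, and 0 higher, beside 3.45%. At any fold change 13 were lower and 5 higher, beside 27.6% and 27% of all genes, and the median was -0.33. The 2 were Rcan1, a calcineurin target and inhibitor (log2 fold change -1.08, SE 0.23, adjusted p = 0.00756 in edgeR), and Ppargc1a, a coactivator of mitochondrial and slow fibre genes (-1.001, SE 0.26, 0.0167). Nfatc1, the calcineurin-dependent factor of slow fibres, at 0.04 (0.41), and Six4, a homeodomain factor, at 0.06 (0.315), differed least. With total counts 2 were higher and 0 lower past both thresholds, beside 1144 and 354 of all 14395 genes. Rcan1 and Ppargc1a thus lost their calls. At any fold change 7 were then higher and 6 lower, while 9313 of all 14395 genes passed in either direction. From replicates 1 and 3 alone 0 passed an adjusted p of 0.05. There 10 had an unadjusted p under 0.05, beside 5026 of 14447 genes.

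The other class II myosin heavy chains gave no common direction. Of 6, 4 were tested. Myh9, the nonmuscle chain of blood cells and fibroblasts, was higher (log2 fold change 0.49, adjusted p = 0.00456 in edgeR), Myh11 of smooth muscle (-0.47, 0.00305) and the nonmuscle Myh14 (-1.23, 0.00132) were lower, and Myh10 stood at 0.04 (0.803). From replicates 1 and 3 alone no adjusted p was under 0.05, though 3 unadjusted ones were, beside 5026 of 14447 genes. The 20 mature fibre genes were all lower at an adjusted p of 0.05 and 15 past both thresholds, beside 27.6% and 4.84% of all genes. With total counts 7 were lower past both thresholds, beside 354 of 14395 genes. The median with TMM was -1.18. From replicates 1 and 3 alone no adjusted p was under 0.05, though all 20 unadjusted ones were, beside 5026 of 14447 genes. Mb, myoglobin, fell most (-2.02, 0.000237), followed by Tcap, telethonin (-1.70, 0.000415), and Des, desmin (-0.72, 0.00269), and Neb, nebulin (-0.82, 0.0039), fell least.

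**Figure D5:**
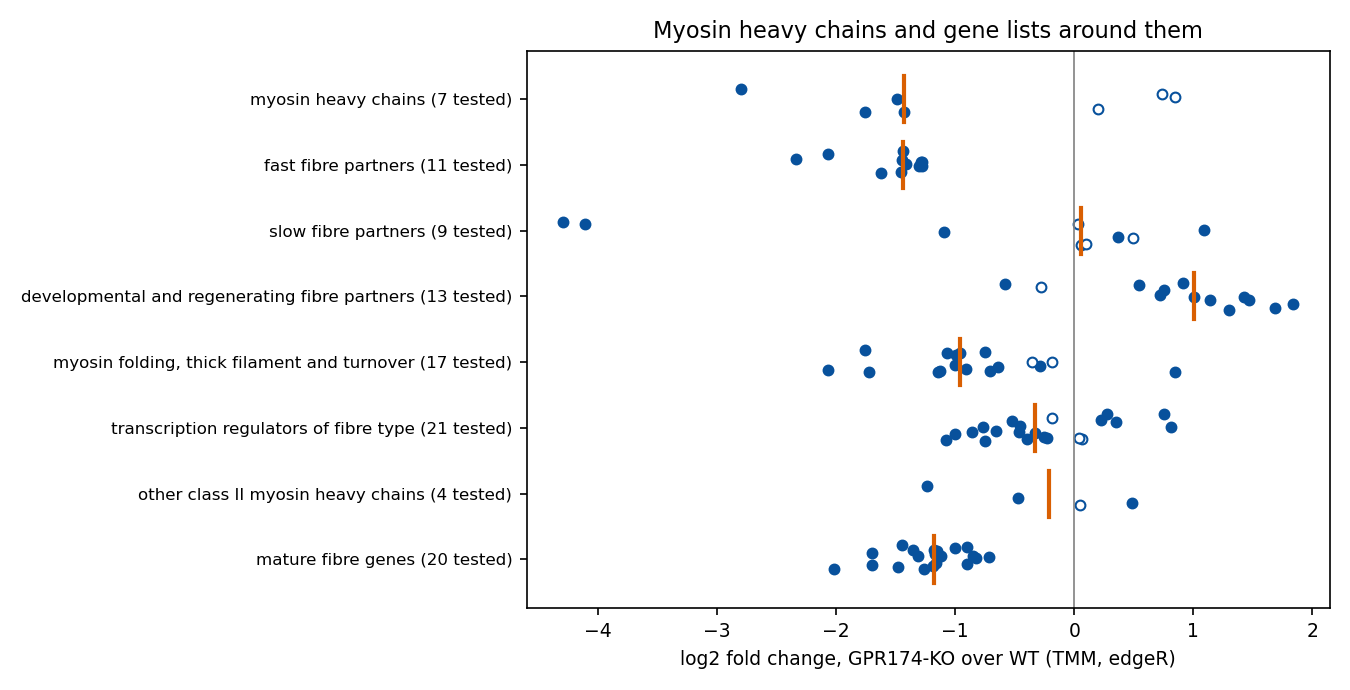
Log2 fold changes, GPR174-KO over WT, of the 7 tested myosin heavy chain genes and of 7 gene lists; each point is a gene, filled where its adjusted p in edgeR is under 0.05, and the orange line is the median. The fast and mature fibre genes all lie to the left of 0, most genes of regenerating fibres lie to the right, and the slow fibre genes run from -4.29 to 1.09.

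Markers of fibres and of some other cells moved alongside these genes. Higher and lower here mean an adjusted p under 0.05 in edgeR at any fold change, which 27% and 27.6% of all tested genes reached. The summed level of 7 macrophage markers was 1226 to 1841 CPM in WT and 2909 to 2924 CPM in Gpr174-/Y muscle, and 7 of 7 were higher. That of 7 endothelial markers was 907 to 1095 and 568 to 645 CPM, and 7 of 7 were lower. Fibre markers summed to 60238 to 74701 and 26987 to 31546 CPM, with 6 of 6 lower. These 6 are all among the mature fibre genes above, so they add no separate result. Satellite cell markers summed to 36.3 to 42.8 and 57.4 to 64.3 CPM, with 2 of 4 higher and 1 lower. The 5 neutrophil markers summed to 22.1 to 28.6 and 32.2 to 35.4 CPM, of which 2 were tested, 1 higher and 1 lower. Fibroblast markers summed to 11794 to 16646 and 20647 to 23609 CPM, with 2 of 6 higher and 3 lower. Their part in the results was not tested.

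Across the 6 libraries, the patterns closest to those of Myh7 and Myh3 were sought among 9966 genes, by the root mean square difference of centred log2 CPM. For Myh7 they included Ddit4l (0.128), Wnk2 (0.177), Lrtm1 (0.199) and Mylk4 (0.204). For Myh3 they were Zfp365 (0.118), Cd72 (0.153), Col8a2 (0.162), Fjx1 (0.170) and Ncf4 (0.173). A value of 0 would be an identical pattern, and all genes share the same libraries and depth.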

How the data were processed

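The authors deposited expected counts, that is estimated counts of reads per RefSeq transcript, without normalization. The authors also deposited FPKM and TPM, scaled for length and library size. The submitters' notes name HISAT2 2.0.4, Bowtie2 2.2.5, RSEM 1.2.12 and GRCm39, and strand use is not given in the sources used here. The table's columns of group means were left out. Samples were grouped by the labels, which name separate replicates. The members and gene lists were chosen with earlier results of these data known.

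Expected counts were summed per Entrez gene and rounded (18089 genes, 99.7% with a symbol), and 14395 genes passed edgeR's filter. Groups were compared with edgeR 4.0.16 in R 4.3.3 (TMM, robust quasi-likelihood test, Benjamini-Hochberg), calling genes by the study's thresholds, 0.05 for the adjusted p and 1 for the size of the log2 fold change. Shares and ratios used the deposited TPM and the exact permutation test in scipy 1.17.1. Beyond the 8 genes, the text names the 2 largest and 2 smallest changes of each list, known partners, genes of like pattern (1 of these is not reported here) and Gpr174, and Tnnc1, Tpm3, Myoz2, Mybph, Hsp90aa1, Myh9, Myh10, Myh11 and Myh14, named after their values were seen. Alternatives were other normalizations, filters and tools (DESeq2 1.42.0, limma 3.58.1 voom, limma on log2(FPKM + 1) and log2(FPKM + 0.1)), a replicate block and left-out libraries; those for the gene lists were chosen after seeing the data. On simulated data with 14301 genes edgeR recovered 100% of 200 changed genes. The size of those changes is not reported here, so this gives no measure of power at the folds above. Sequences are from RefSeq on GRCm38.p6, since no genome of the build of the files was used. Limits of 3 counts cover counting error only.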

Additional observations from a re-analysis of the deposited data

How the results depend on the processing

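The test depends on which libraries are taken as independent. With 4 chains lower past both thresholds in the result reported, the count was 1 scaled to the mature fibre genes, 1 scaled to the 8 chains, 2 with the replicate block and 0 from replicates 1 and 3 alone, and ran from 2 to 4 when single libraries were left out. With 0 chains higher, and Myh7b counted, it was 1 with total counts, 3 scaled to the fibre genes, 3 scaled to the 8 chains, 1 with log2(FPKM + 1), 1 with log2(FPKM + 0.1) and from 0 to 2 with single libraries left out. The 1 with total counts was Myh7b, which was also among the 3 under the fibre and 8-chain scalings. Myh7b was 1 of the 2 without WT replicate 3, and its calls are not used as evidence, for the reason given above. The 1 in each FPKM fit was Myh3. Against 1192 of all genes, the count was 9104 scaled to the fibre genes, 9953 scaled to the 8 chains, 645 with log2(FPKM + 1), 0 from replicates 1 and 3 alone and from 924 to 1826 with single libraries left out. The split of higher to lower genes was 496 to 696, but 1144 to 354 with total counts and 884 to 229 with log2(FPKM + 0.1). The cause was not tested, beyond the scalings' own construction and the smaller number of libraries.

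Same-numbered libraries are different mice whose deviations from the group mean hardly correlated (0.008, 0.050 and 0.005), and 5 of 6 libraries correlated best with their own number. These matches are not independent, since the deviations within a group sum to 0 and the same correlations serve both groups. The count expected without pairing was not computed, so this count does not show a pairing. With the replicate block Myh4 stood at -1.36 (adjusted p = 0.0553 in edgeR) and Myh7 at -1.33 (0.105). Of 130 alternative log2 fold changes of single chains, 95 kept their side of an adjusted p of 0.05, 22 lost it, 13 gained it and 0 changed sign. Of the 13, 5 were of Myh7b and are not used as evidence. All 98 alternative differences in shares moved by less than 1 SD within a group. Leaving out 1 of 3 libraries cannot move a group mean that far, so those settings could not fail this limit. The difference of Myh4 changed sign without WT replicate 1, and that of Myh7 without WT replicate 1 or Gpr174-/Y replicate 1. That of the slow share changed sign without Gpr174-/Y replicate 3, and that of Myh6, near 0, in several. Myh2 passed both thresholds in 18 of 19 alternatives, Myh1 in 16, Myh4 in 12 and Myh7 in 7. At this depth Myh6 and Myh7b cannot be compared closely.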

Other observations

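Myh3 held nearly the same TPM in the Gpr174-/Y libraries, 744, 744 and 740.2, while Myh4 ran from 2454 to 3377 TPM across them. In WT muscle Myh3 ran from 133 to 543 TPM. WT replicate 3, with the most Myh3 of its group, also had the least Myh4 and Myh7 and the most Myh1 and Myh2, so that high embryonic chain went with low Myh1 and Myh2 between the groups but not within WT. With 3 libraries a group, 1 of which lies between the other two, this was not tested.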
